A study of Mus musculus with 2 samples.

Results

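The nuclear encoded respiratory chain genes are the chromosomal genes for the subunits of the 5 protein complexes of oxidative phosphorylation. They were chosen by symbol alone: genes named Ndufa, Ndufb, Ndufc, Ndufs or Ndufv with a number, Sdha to Sdhd, all Uqcr genes, Cyc1, the lettered cytochrome oxidase genes Cox5a to Cox8c, and all Atp5 genes, without symbols that carry the pseudogene mark -ps. The rule found 90 of the 55357 gene rows. Of these, 42 belong to complex I, 4 to complex II, 9 to complex III, 17 to complex IV and 18 to complex V, and Atp5o occurs as 2 rows, of which 1 held no count. The annotation GENCODE M21 gives 4 of the 90 as processed pseudogenes, Ndufa11b, Ndufb4c and Ndufs6b in complex I and Cox6c2 in complex IV, and 0 of these were eligible for ratios. It gives the row of Ndufb1, which was eligible, as a long noncoding RNA of a bidirectional promoter. Cox4i1, Ndufab1 and Cycs act in the same chain and lie outside the rule. No UMI was counted for 4 of the rows, and 77 members were eligible for ratios: these reached 20 CPM in Control or in SAP and held 50 UMIs or more in total.

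The respiratory chain sits in the inner mitochondrial membrane. Complex I takes electrons from NADH and complex II from succinate, complex III passes them to cytochrome c, and complex IV hands them to oxygen; complexes I, III and IV pump protons, and complex V, the ATP synthase, uses the proton gradient to make ATP. Complexes I, III, IV and V join nuclear encoded subunits with proteins encoded in mitochondrial DNA, while complex II is encoded in the nucleus alone. T cells are known to raise mitochondrial content and respiration when they are activated and divide.

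Transcripts were counted in 2 droplet libraries of T cells labelled as from mouse ileum, 1 titled Control and 1 titled SAP. The study's design text describes a culture in which dendritic cells first met phages from healthy or SAP mice and then met gut T cells of GF mice, after which T cells touched by a presenting dendritic cell carried a FucoID surface tag. GF T cells are therefore shared by both groups, and the letters SAP and GF are not spelled out in the sources used here. The sources do not state the strain, sex, age or number of mice, how many animals were pooled, or whether tagged cells alone were sequenced. With 1 library per group no difference has a replicate check, no test was made, and every 95% interval covers counting error only.

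Cells were kept with at least 500 UMIs, 300 genes and at most 10% mitochondrial UMIs, and called T cells with at least 2 UMIs over the T cell receptor and CD3 genes. This left 5548 Control cells with 18856706 UMIs and 4882 SAP cells with 18348029 UMIs, at medians of 3174 and 3465.5 UMIs per cell. T cell receptor and CD3 genes summed to 8123 and 7875 CPM. CPM here is UMIs per 1000000 UMIs of the T cells, and since a UMI marks 1 transcript end, levels were not divided by length. Differences between genes in how their reads were captured and placed were not tested and can shift levels set side by side. The libraries shared 6 barcodes. B and plasma cell markers summed to 811 CPM in Control against 48.5 CPM in SAP, and came mainly from Igkc at 706 and 4.31 CPM; 15 and 4 cells held 10 or more of these UMIs. Epithelial markers summed to 130 and 171 CPM, myeloid and dendritic markers to 60.5 and 54.6 CPM with Clec9a at 0 in both, and stromal markers to 24.7 and 29.8 CPM.

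A small set of cells stood apart from its label and touches several results. In Control 12 cells and in SAP 29 cells of the T cell gate held 5 or more UMIs over the folate receptor gene Folr1 and the keratin genes Krt8 and Krt18. They held few receptor and CD3 transcripts, 190 CPM in Control and 216 CPM in SAP against 8306 and 8296 CPM in the other T cells, and Ptprc, which encodes the pan-leukocyte protein CD45, stood at 37.6 and 44.0 CPM against 1375 and 1545. Their median depth was 39375 and 33367 UMIs, so that they gave 2.26% of the Control and 5.21% of the SAP T cell UMIs. They gave 3.12% and 7.36% of the member UMIs. Counts of called members and the ratios between the libraries are therefore given for all T cells and again without these Folr1 and keratin cells, a choice made after the values were seen. Levels, isoform shares and summed values of cell groups are given without them unless all T cells are named.

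The members together made up 1.74% of T cell UMIs in Control and 1.71% in SAP, a median of 52 and 55 UMIs per cell. With the Folr1 and keratin cells left out the members summed to 17281 CPM in Control (95% counting interval 17222 to 17342) and 16688 CPM in SAP (16628 to 16749). Complex V held the largest sum, 5753 and 5422 CPM, beside complex I with 4764 and 4718 CPM and complex IV with 4668 and 4478 CPM. No order of complexes I and IV is read, since it turns on Ndufa4, which the rule counts by its name in complex I and which is now placed in complex IV. With Ndufa4 moved, complex I summed to 4537 and 4510 CPM and complex IV to 4895 and 4686 CPM. Adding Cox4i1 as well brought complex IV to 5567 and 5387 CPM, still below complex V. Complex III followed with 1907 and 1870 CPM. Complex II, the succinate dehydrogenase of the citric acid cycle, was far below the others at 190 and 201 CPM. The 77 eligible members ran from 22.8 to 1314 CPM in Control with a median of 134 CPM.

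**Figure D1:**
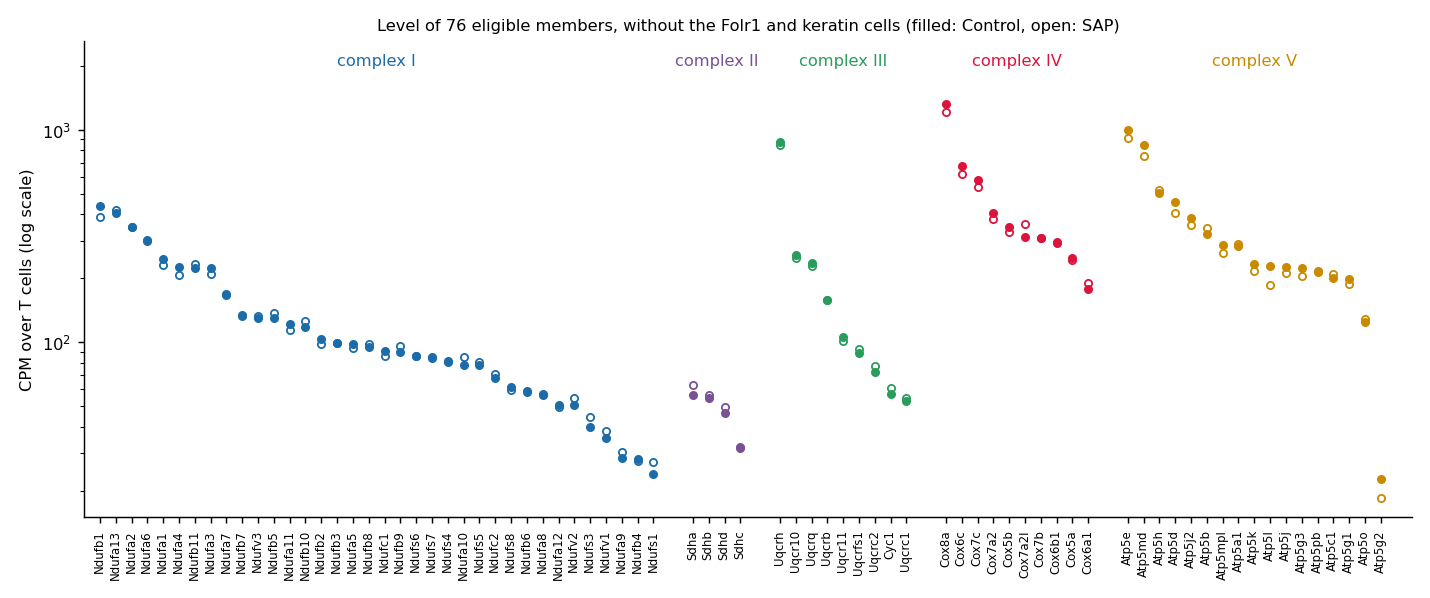
Level of 76 of the 77 eligible members in CPM (log axis), grouped by complex, with Control as filled and SAP as open points and the Folr1 and keratin cells left out. Cox8a, Atp5e, Uqcrh and Atp5md stand near the top of the scale, and the 4 subunits of complex II lie at or below 62.7 CPM.

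Cox8a, a small subunit of cytochrome oxidase, was the most abundant member. It reached, without the Folr1 and keratin cells, 1314 CPM (Control) and 1210 CPM (SAP) and had a UMI in 4859 and 4129 cells. Cox6c followed at 678 and 621 CPM and Cox7c at 582 and 538 CPM. In complex V Atp5e, the epsilon subunit of the catalytic head, stood at 994 and 908 CPM, Atp5md, a small membrane subunit, at 842 and 755 CPM, and Atp5h, a subunit of the stalk, at 505 and 519 CPM. In complex III the hinge protein gene Uqcrh reached 877 and 847 CPM, while Uqcr10 and Uqcrq stood at 258 and 236 CPM in Control. These 3 genes and the other small subunits held most of complex III: the 4 larger subunits Uqcrc1, Uqcrc2, Uqcrfs1 and Cyc1 summed to 272 and 287 CPM, against 1635 and 1583 CPM for the 5 small ones.

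The highest members of complex I were accessory subunits. Ndufb1 had 436 CPM in Control against 389 in SAP, Ndufa13, also known as GRIM-19, at 407 and 417 CPM, and Ndufa2 at 349 and 350 CPM. The Ndufa members summed to 2355 and 2313 CPM and the Ndufb members to 1517 and 1496 CPM. In complex II the flavoprotein gene Sdha was at 56.8 and 62.7 CPM, the iron-sulfur subunit gene Sdhb at 54.6 and 56.6, and the membrane anchors Sdhd at 46.3 and 49.4 and Sdhc at 32.2 and 31.9.

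Where a subunit has isoforms with known tissue preferences, 1 form held nearly the whole family. Cox6a1 held 99.8% of Cox6a UMIs in Control and 99.9% in SAP, and Cox6b1 held 99.5% of Cox6b UMIs in both. Ndufa4l2, the hypoxia form of Ndufa4, had 0 UMIs in Control and 1 in SAP. The muscle form Cox6a2 had 7 UMIs in Control and 2 in SAP, and Cox7a1, the form of heart and skeletal muscle, 16 and 22. The testis form Cox6b2 had 25 and 24 UMIs. Cox8b, Cox8c and Cox7b2 had 0 UMIs in both libraries, which, at a limit of 3 counts for a count of 0, allows up to 0.163 CPM for Control and 0.172 CPM for SAP. Cox4i1, which lies outside the rule, had 12384 and 12192 UMIs and Cox4i2, its lung and hypoxia form, 0.

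The Cox7a and Atp5g families were divided. Cox7a2 and Cox7a2l, whose protein links complexes III and IV in supercomplexes, held 56.5% and 43.4% of Cox7a UMIs in Control. In SAP they held 51.2% (interval 50.4 to 52.1) and 48.6% (47.7 to 49.4), so the shares were closer in SAP and the intervals of the libraries did not meet. The 3 Atp5g genes encode the same mature ring subunit with different import leaders. Atp5g3, Atp5g1 and Atp5g2 held 50.4%, 44.5% and 5.12% in Control and 49.9%, 45.6% and 4.51% in SAP. Beside its near copy Ndufb4c, Ndufb4 held 93.0% and 93.4% of the UMIs of both, and Cox6c held 99.96% and 99.92% beside Cox6c2. Members of such families, and members with processed pseudogenes, can share reads with their copies, so these shares depend on how the authors' counting placed such reads.

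Sequences before the transcription start are shown for Cox8a, the member of highest level, for Atp5l and Cox7a2l, the members of lowest and highest ratio below, and for Sdhd and Ndufa11, whose windows hold a match to the motif of the transcription factor NRF1. Each is the 100 bases before the RefSeq start (GRCm38.p6), 5′ to 3′ on the strand of the gene, and capitals mark a match to the 10-base NRF1 palindrome with its sixth base free. Cox8a lies at chr19:7217617-7217716 (minus strand), Atp5l at chr9:44920743-44920842 (minus), Cox7a2l at chr17:83514334-83514433 (minus), Sdhd at chr9:50603850-50603949 (minus) and Ndufa11 at chr17:56717662-56717761 (plus). None of these windows overlaps an exon of its gene in GENCODE M21. The window of Cox7a2l lies within the gene as drawn there, chr17:83501918-83517330, between exons.
Cox8a: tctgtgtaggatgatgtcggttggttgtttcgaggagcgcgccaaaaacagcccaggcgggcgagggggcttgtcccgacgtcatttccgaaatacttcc
Atp5l: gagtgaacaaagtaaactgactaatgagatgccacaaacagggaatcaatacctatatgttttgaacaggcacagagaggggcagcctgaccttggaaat
Cox7a2l: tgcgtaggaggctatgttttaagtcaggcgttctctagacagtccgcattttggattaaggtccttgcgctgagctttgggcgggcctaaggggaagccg
Sdhd: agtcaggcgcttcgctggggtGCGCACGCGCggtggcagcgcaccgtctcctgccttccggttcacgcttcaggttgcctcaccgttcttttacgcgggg
Ndufa11: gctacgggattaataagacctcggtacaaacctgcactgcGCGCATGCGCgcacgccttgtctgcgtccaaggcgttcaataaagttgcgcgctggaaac

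RefSeq promoter windows of 300 bases, 250 before to 50 after the start, were found for 65 of the 77 eligible members. Motifs were read on both strands. The NRF1 palindrome occurred in 7.69% of these members, and in 26.2% with its sixth base free, which also counts the palindrome. The latter motif stood in 14.2% of the 4364 eligible genes with a window and in 5.19% of all 27025 symbols of the table. The YY1 motif AAGATGGC was found in 15.4% of the members, 6.65% of eligible genes and 3.19% of all symbols. The ETS motif CCGGAAGT of the factor GABPA was found in 7.69% of the members, 11.05% of eligible genes and 4.31% of all, and the TATA box letters TATAAA in 9.23%, 8.82% and 15.7%. By complex, the NRF1 motif with the free base stood in 7 of 33 complex I members, 2 of 3 of complex II, 1 of 5 of complex III, 1 of 9 of complex IV and 6 of 15 of complex V. Matches are letters in a window and show no binding. The genes of these factors were themselves detected without the Folr1 and keratin cells: Nrf1 at 28.8 CPM in Control and 32.0 in SAP, Gabpa at 26.9 and 27.8, and Yy1 at 246 and 237. Ppargc1a, the coactivator of mitochondrial biogenesis, had 1 and 0 UMIs.

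Between the libraries the members differed little. In all T cells 4 of 77 members were at least 1.2-fold higher in SAP, beside 10.3% of the 5631 eligible genes, and 1 was at least 1.2-fold lower, beside 1.88%. The 4 higher members were Ndufv2 with a ratio of 1.25, Cyc1 with 1.23, and Ndufb11 and Ndufb9 with 1.21 each. With TMM factors in place of CPM there were 0 higher, beside 5.08% of genes, and 7 lower, beside 6.78%, and with median-of-ratios factors 0, beside 5.61%, and 4, beside 5.11%. TMM moved the median of all eligible genes by -0.11 on the log2 scale, and the members' median ratio was then 0.947 against 0.964 for all genes. Without the Folr1 and keratin cells 0 members were higher, beside 6.69% of 5469 genes, and the ratios of these 4 genes became 1.08, 1.07, 1.04 and 1.07. The other highest members in all T cells were Uqcrc1 with 1.19, Ndufv1 with 1.18, Ndufs8 with 1.17 and Cox7a2l with 1.13. Without those cells Uqcrc1 stood at 1.04, Ndufv1 at 1.08, Ndufs8 at 0.967 and Cox7a2l at 1.16.

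The median ratio of the eligible members was 1.02 in all T cells, where the median of all eligible genes was 1.04, and 0.992 against 1.04 without the Folr1 and keratin cells. Among members and genes eligible at 100 CPM the medians were 0.999 against 1.003 in all T cells. They were 0.965 against 1.006 without the Folr1 and keratin cells. The interval lay above 1 for 22 members, beside 29.8% of genes, and below 1 for 21, beside 12.4%. It lay above 1 for 8 without the Folr1 and keratin cells, beside 28.4%, and below 1 for 22, beside 10.3%. These shares are not at equal depth: eligible members had a median of 134 CPM in Control against 50.1 for all eligible genes, and intervals narrow with more UMIs. Of the 22 members above 1, 6 remained above without those cells, 12 then held 1 and 4 passed below it, namely Atp5g1, Atp5g3, Atp5j and Cox5b. Of the 21 below 1, 17 remained below. Barcodes over 10% mitochondrial UMIs had been 1.098% of Control and 3.13% of SAP barcodes, and the mitochondrial share of the kept T cells was 1.23% and 1.47%. Within cells of 1% to 2% mitochondrial UMIs, without the Folr1 and keratin cells, the members' median was 1.01 against 1.03 for all genes. Atp5l stood at 0.802 there, and the sums of complexes I to V at 1.01, 1.09, 1.01, 0.988 and 0.964.

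Atp5l, a membrane subunit of ATP synthase that takes part in its dimers, had the lowest ratio. Its level was 225 CPM from 4236 UMIs in Control and 177 CPM from 3246 UMIs in SAP, a ratio of 0.788 (interval 0.752 to 0.825). The ratio without the Folr1 and keratin cells was 0.809 (0.772 to 0.847), and it was at least 1.2-fold lower in each of the 18 settings with gene ratios, from 0.732 to 0.815. In the same cells Atp5g2 was the only other member at least 1.2-fold lower (2 of 77, beside 1.48% of genes), at 22.8 and 18.6 CPM and a ratio of 0.815 (0.703 to 0.944). Atp5g2 was eligible there through its Control level alone, which favours a low ratio. Atp5l rests on 4229 and 3228 UMIs there, and Atp5g2 on 420 and 323.

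The next lowest members in all T cells were Atp5d with 0.861, Ndufb1 with 0.866, Atp5g2 with 0.869, Atp5md with 0.888, Ndufa4 and Atp5mpl with 0.891 each, and Cox6c with 0.898. All of these were also below 1 without the Folr1 and keratin cells, at 0.884, 0.892, 0.815, 0.897, 0.916, 0.916 and 0.917. Atp5d encodes the delta subunit of the catalytic head, and Ndufa4 the subunit now placed in complex IV. At the other end Cox7a2l had 311 CPM in Control against 361 in SAP without those cells, a ratio of 1.16 (1.12 to 1.202). Atp5b, the catalytic beta subunit, had 1.07 (1.03 to 1.104) and Sdha 1.11 (1.01 to 1.204).

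**Figure D2:**
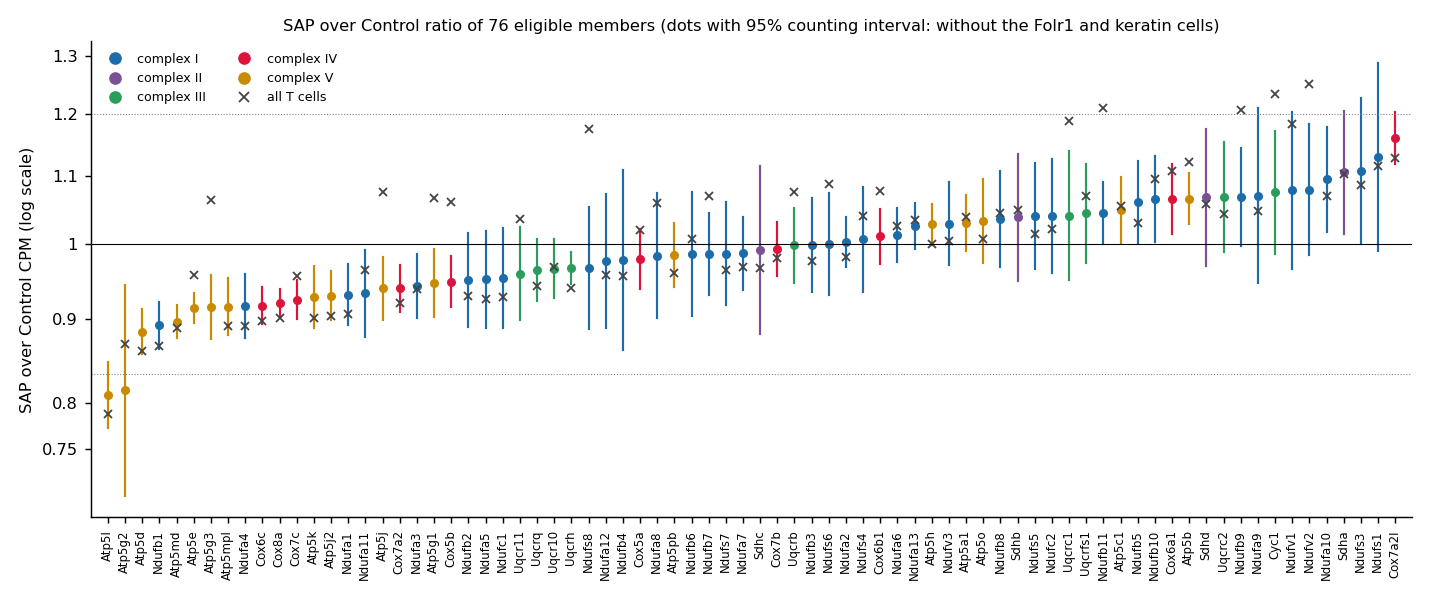
SAP over Control ratio of CPM (log axis) for 76 of the 77 eligible members, ordered by the ratio without the Folr1 and keratin cells (coloured points, bars for the 95% counting interval, colour for the complex) beside the ratio in all T cells (crosses); dotted lines mark 1.2-fold. Crosses of Ndufv2, Cyc1, Ndufb11 and Ndufb9 lie above the upper line while their points lie within it, and Atp5l lies below the lower line in both.

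By complex the ratio of summed CPM in all T cells was 1.01 (0.998 to 1.02) for complex I, 1.05 (1.01 to 1.103) for II, 0.989 (0.975 to 1.004) for III, 0.968 (0.959 to 0.977) for IV and 0.960 (0.951 to 0.968) for V. Without the Folr1 and keratin cells these became 0.990, 1.06, 0.981, 0.959 and 0.942. Complexes IV and V were below 1 in each of the 18 settings that could change the sums, IV between 0.899 and 0.988 and V between 0.889 and 0.974. All of these settings use the same 2 libraries. Complexes I and II lay on both sides of 1 across scalings. Within complex V without those cells, 11 of 17 eligible members had an interval below 1, beside 10.3% of genes. It lay above 1 for 2, Atp5b and Atp5c1, both of the catalytic head, beside 28.4% of genes. The 5 head genes divided, with 2 intervals above 1 and 2 below, and their summed ratio was 0.956 (0.943 to 0.970). Eligible complex V members had a median of 233 CPM in Control against 50.1 for all eligible genes, and intervals narrow with more UMIs. In complex III the 4 larger subunits summed to a ratio of 1.06 (1.02 to 1.098) and the 5 small ones to 0.968 (0.952 to 0.984).

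Transcript length went with the ratio among the members. In all T cells the 25 shortest eligible members, with transcripts of 321.5 to 569.5 bases, had a median ratio of 0.957, and the 26 longest, from 861 bases up, 1.05. These medians without the Folr1 and keratin cells were 0.959 and 1.03. Other eligible genes of the shortest lengths had medians of 0.994 and 0.990 in the 2 sets of cells, and of the longest 1.03 and 1.04. The members are short as a group, with a median of 655 bases against 2042 for the other eligible genes.

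Other genes of the pathway gave these sums. The mitochondrially encoded proteins of the same complexes had a summed ratio of 1.11 in all T cells and 1.14 (1.13 to 1.15) without the Folr1 and keratin cells, above that of each nuclear complex; there 8 of 12 eligible genes had an interval above 1 and 2 below, mt-Atp8 with 0.785 and mt-Nd4l with 0.707. Among them mt-Nd4 reached 1.26 and mt-Cytb 1.11. The gene mt-Nd4l was eligible through its Control level alone, at 20.6 CPM against 14.5 in SAP, which favours a low ratio. Without those cells the summed ratio was 1.07 for the TCA cycle genes (5 of 13 above 1 and 0 below), 1.02 for mitochondrial ribosomal proteins (6 of 53 above and 2 below), 1.01 for assembly factors (5 of 21 above and 4 below), 0.986 for glycolysis (1 of 14 above and 2 below) and 0.950 for cytoplasmic ribosomal proteins (16 of 80 above and 46 below). The proteasome had 1.01 (5 of 43 above and 2 below) and mitochondrial import 0.980 (0 of 17 above and 3 below). These counts are of intervals, and of all eligible genes in the same cells 28.4% had one above 1 and 10.3% below. Of the genes just outside the rule, Cox4i1 had a ratio of 1.04, Ndufab1 1.11, Cycs 0.922 and Higd1a 0.880, and Tfam, which packages mitochondrial DNA, 1.16 (1.03 to 1.31). Chchd2 had 0.955, Higd2a 0.975, Ucp2 0.981, Tfb2m 1.01, Gabpb1 0.942, Gabpb2 1.12, Esrra 1.13, Polrmt 1.12 and Ppargc1b 1.22, of which the intervals of Chchd2 and Gabpb2 left out 1.

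Member counts in the Folr1 and keratin cells differed from those in the other T cells. Set against the other T cells of their own library, 33 of 77 members were at least 1.2-fold higher in both libraries, beside 21.8% of genes, and 38 at least 1.2-fold lower, beside 66.2%. Ndufv2 was 11.8-fold higher in Control (255 UMIs in 12 cells) and 9.49-fold in SAP (496 UMIs in 29 cells). Ndufs8 was 7.44-fold and 8.52-fold higher, Cyc1 7.87-fold and 7.25-fold, Ndufb11 7.101-fold and 7.11-fold, and Ndufb9 4.91-fold and 5.401-fold. These 5 genes are among the 7 with the highest SAP over Control ratios in all T cells.

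Other abundant members were lower in the same cells than in the other T cells. Atp5k had 2 UMIs in the Control and 4 in the SAP cells, at ratios of 0.0201 and 0.0193. Ndufb1 had 6 and 13 UMIs, Atp5mpl 3 and 16, and Uqcrh, otherwise the most abundant complex III member, 13 and 65, which is 30.5 and 68.1 CPM. Ndufs6b, a near copy of Ndufs6 annotated as a processed pseudogene, had 169 of its 175 Control UMIs and 321 of its 329 SAP UMIs in these cells. The pseudogene Uqcrh-ps1 had 285 and 485 UMIs there against 10 and 9 in all other T cells, and Ndufa12-ps 122 and 221 against 76 and 78. Whether the low counts of members such as Uqcrh come from reads placed on such copies was not tested. The mitochondrially encoded proteins stood at 530 and 572 CPM against 5154 and 5888 CPM, and proteasome genes at 10233 and 10927 against 4116 and 4167 CPM. The source of these cells was not tested.

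**Figure D3:**
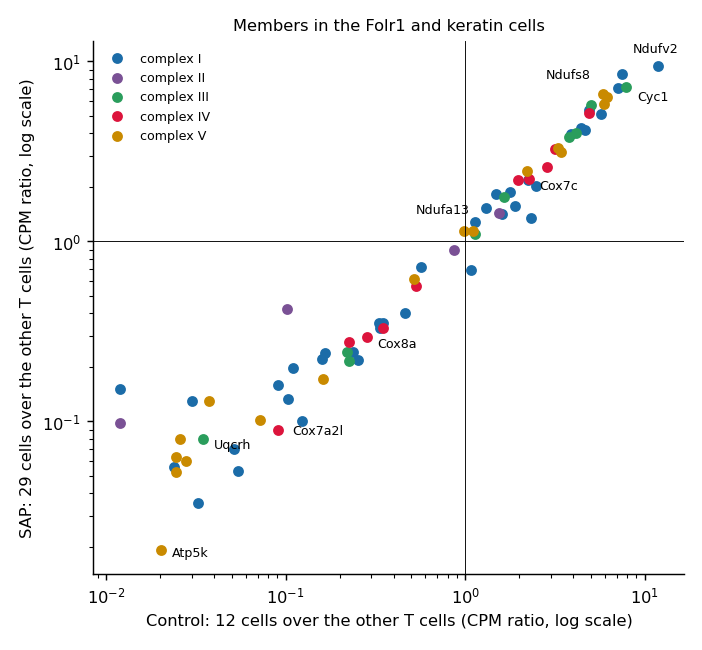
Ratio of CPM in the Folr1 and keratin cells over the other T cells for each eligible member, in Control (x, 12 cells) and SAP (y, 29 cells), both axes log, colours for complexes; Ndufb4 and Sdhc, with 0 Control UMIs in these cells, are drawn at the left edge. The members spread from Atp5k near 0.02 to Ndufv2 near 10, and those at low ratios, which rest on few UMIs, scatter most.

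Gates on lineage transcripts gave similar member levels. Cells with Trdc, a gamma delta T cell transcript, and no Cd8b1 or Cd4 UMI numbered 2357 in Control and 2122 in SAP without the Folr1 and keratin cells; the Cd8b1 gate held 560 and 554, the gate of Cd8a without Cd8b1, Trdc or Cd4 1495 and 1218, and the Cd4 gate 189 and 166. In the Cd8b1 gate the members summed to 18046 CPM (Control) and 17239 CPM (SAP). In the Trdc gate they stood at 17401 and 16764 CPM, ratios to the Cd8b1 gate of 0.964 and 0.972. In the Cd8a-only gate they stood at 17261 and 16805 CPM (0.956 and 0.975), and in the Cd4 gate at 17340 and 17592 CPM (0.961 and 1.02). The ratios of the Trdc gate turned to 1.02 and 1.04, and those of the Cd8a-only gate to 1.01 and 1.02, in all T cells of 2000 to 5000 UMIs, so no order of these gates is read.

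Few members differed by 1.2-fold between gates in both libraries. Sdhb was lower in the Trdc gate without the Folr1 and keratin cells, 48.1 against 73.3 CPM in Control (ratio 0.657, interval 0.541 to 0.8004) and 50.3 against 73.0 CPM in SAP (0.689, 0.570 to 0.837). Ndufc2 (0.794 and 0.760) and Atp5g2 (0.588 and 0.779) were lower there too, making 3 of 77 beside 6.08% of genes, with 0 higher beside 18.7%. The interval of Atp5g2 in SAP held 1. In the Cd8a-only gate Sdhb (0.735 and 0.804) and Ndufc2 (0.804 and 0.819) were lower, 2 of 77 beside 6.55%, with 0 higher beside 19.1%. In all T cells the Trdc gate had 2 lower members, Sdhb and Ndufc2 (beside 5.56%), and 0 higher (beside 19.6%). The Cd8a-only gate there had 3 lower, with Ndufb1 added (beside 6.56%), and 1 higher, Ndufv1 (beside 20.5%). In the Cd4 gate Sdhc, Ndufs5, Ndufb2, Ndufs7 and Ndufa7 were lower (5 of 77, beside 16.6%) and Uqcrfs1 higher (1 of 77, beside 10.3%); in all T cells the counts were the same, beside 16.4% and 10.1%. These rest on 189 and 166 cells, and the interval of Sdhc, Ndufs7 and Uqcrfs1 held 1 in both libraries. Glycolysis genes summed to 2923 and 3166 CPM in the Cd4 gate against 2258 and 2340 in the Cd8b1 gate. B and plasma markers had 11175 CPM in the Cd4 gate of Control against 12.5 in that of SAP, and their part in the gate's ratios was not tested.

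Cells with an Mki67 UMI, a transcript of dividing cells, held more of most members. Without the Folr1 and keratin cells there were 143 in Control and 138 in SAP, and members summed to 22937 against 17031 CPM in Control (ratio 1.35, interval 1.33 to 1.37) and 20597 against 16503 CPM in SAP (1.25, 1.23 to 1.27). At least 1.2-fold higher in both libraries were 47 of 77 members, beside 13.6% of genes, and 0 were lower, beside 15.3%. Over all T cells 41 were higher, beside 12.7%, and 0 lower, beside 14.5%. The 47 were 20 of 37 eligible members of complex I, 2 of 4 of II, 5 of 9 of III, 7 of 10 of IV and 13 of 17 of V. The mitochondrially encoded proteins had ratios of 1.05 and 1.01. Mitochondrial ribosomal proteins (1.44 and 1.28), proteasome (1.36 and 1.31) and glycolysis genes (1.39 and 1.48) were higher as well, and cytoplasmic ribosomal proteins close to 1 (0.990 and 1.02). The median depth was 4346 and 4618.5 UMIs in Mki67 cells against 3155 and 3428 in the rest.

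Cells with an Ifng UMI had member sums of 17444 against 17229 CPM in Control and 17112 against 16538 CPM in SAP, and 0 of 77 members were called in either direction (beside 4.17% higher and 7.94% lower, and in all T cells 0 again beside 4.32% and 7.46%). With a UMI of Tnfrsf9, the activation receptor 4-1BB, 2 members were at least 1.2-fold higher without the Folr1 and keratin cells, Atp5d and Atp5md, beside 8.05%, and 0 lower, beside 6.97%. Over all T cells Atp5d and Atp5md were again higher (beside 9.17%), and Ndufb11, Cyc1 and Ndufv2 were called lower (beside 10.1%).

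The shares of members and of mitochondrial UMIs ran in opposite directions with depth. From the shallowest to the deepest of 5 equal groups of cells by depth, without the Folr1 and keratin cells, members went from 13289 to 18462 CPM in Control and from 11084 to 17982 CPM in SAP, while mitochondrial UMIs went from 2.98% to 0.963% and from 4.09% to 1.14%. Cells were therefore split in 3 by mitochondrial share within each depth group, and levels given per 1000000 non-mitochondrial UMIs. Between the highest and lowest tertile the mitochondrially encoded proteins differed 2.64-fold in Control and 2.60-fold in SAP, which the split itself sets. The members summed to 17317 against 17944 in Control (ratio 0.965) and 16693 against 17170 in SAP (0.972). Only Atp5md was called lower in both libraries, at 0.824 and 0.816 (1 of 77, beside 2.38%), and 0 were higher, beside 4.83%. In all T cells 0 were higher, beside 8.51%, and 10 were called lower, beside 8.28%: Uqcrb, Ndufs8, Atp5g1, Ndufv2, Atp5j, Ndufb11, Cox5b, Atp5g3, Cyc1 and Ndufb9. The Folr1 and keratin cells hold few mitochondrial UMIs (0.509% and 0.540%) and many of these 10 transcripts.

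The ratio of mitochondrial to nuclear encoded UMIs differed between complexes and libraries. The ratio outside the Folr1 and keratin cells was 0.472 in Control and 0.564 in SAP for complex I, 1.02 and 1.15 for complex III, 0.154 and 0.188 for complex IV, and 0.0418 and 0.0419 for complex V. It was thus higher in SAP for complexes I, III and IV and level for complex V, where mt-Atp8 was lower in SAP. The mitochondrial part of complex IV was mainly mt-Co1, at 676 CPM in Control against 12.9 for mt-Co2 and 30.5 for mt-Co3. In complex V it was mt-Atp8 at 150 and mt-Atp6 at 91.0 CPM. Whether the differences between complexes come from how mitochondrial reads were counted was not tested.

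The complexes varied together from cell to cell. Cells were split into tertiles of the complex V share of their non-mitochondrial UMIs within depth groups, so complex V itself is not read. When the Folr1 and keratin cells were left out, all 37 eligible members of complex I, 4 of II, 9 of III and 10 of IV were higher in the highest tertile in both libraries. Of all 5466 genes measured, 1689 were higher in both libraries and 2982 lower in both. The sums of complex I were 5677 against 4004 in Control (ratio 1.42, 1.39 to 1.44) and 5622 against 4000 in SAP (1.41, 1.38 to 1.43). Complex II had ratios of 1.38 and 1.199, III 1.35 and 1.34, and IV 1.37 and 1.39. At least 1.2-fold higher were 33 members of complex I, 2 of II, 7 of III and 9 of IV, beside 11.8% of genes, and 0 of these were lower, beside 24.1%. Over all T cells 26 of complex I, 1 of II, 6 of III and 8 of IV were higher, beside 16% of genes, and 0 lower, beside 30.2%. Ndufc1 was among the highest with 1.78 and 1.70, and Cox5b had 1.61 and 1.57.

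Other lists set the scale for that relation. Mitochondrial ribosomal proteins had ratios of 1.34 and 1.28, the proteasome 1.28 and 1.31, glycolysis 1.23 and 1.29, the TCA cycle 1.15 and 1.09, and cytoplasmic ribosomal proteins 1.09 and 1.15. In the same order 48 of 53, 41 of 43, 9 of 14, 7 of 13 and 74 of 80 genes were above 1 in both libraries. The mitochondrially encoded proteins of the same complexes had 0.931 and 0.952, with 0 of 12 genes above 1 in both libraries. Across single cells the Pearson correlation of complex IV and V shares was 0.434 over 5536 Control cells and 0.482 over 4853 SAP cells, that of I and V 0.365 and 0.413, and that of III and V 0.306 and 0.378; all shares come from the same cells and share their depth.

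**Figure D4:**
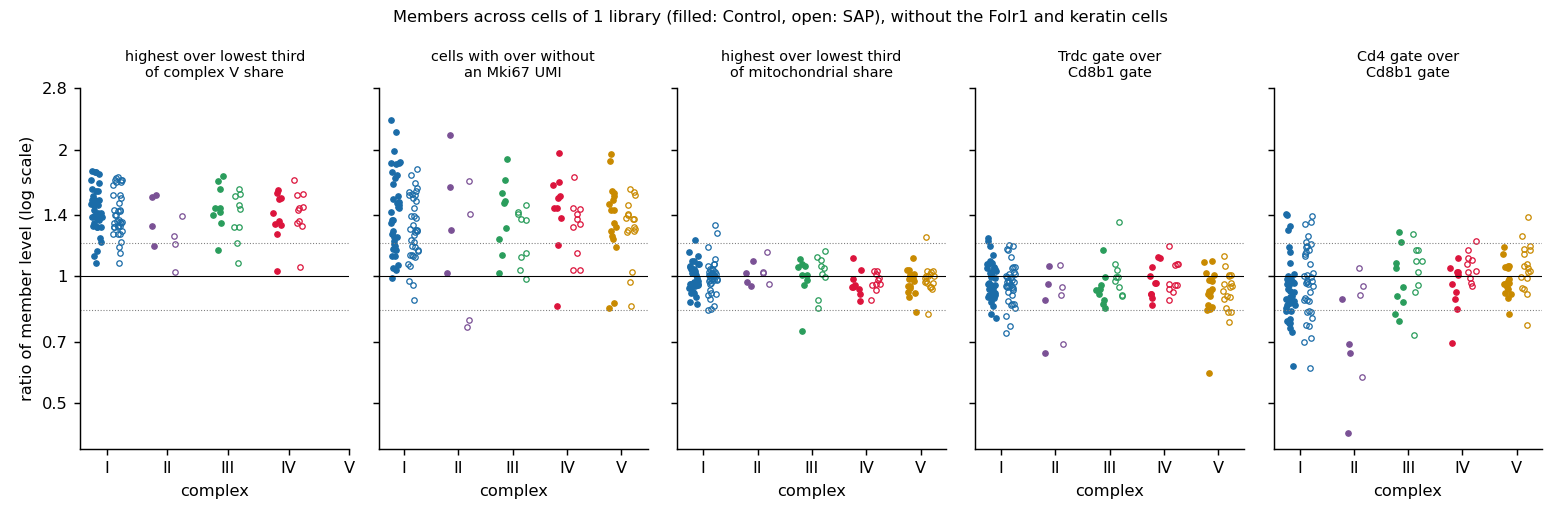
Ratio of each eligible member's level (log axis) in 5 contrasts between cells of 1 library, by complex, with Control filled and SAP open and the Folr1 and keratin cells left out; levels are per 1000000 non-mitochondrial UMIs in the tertiles and CPM elsewhere, dotted lines mark 1.2-fold, and complex V is not drawn where it chose the cells. Members lie above 1 in the tertiles of complex V share and mostly above it in cells with an Mki67 UMI, and around 1 in the tertiles of mitochondrial share and the gates.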

How the data were processed

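Gene counts of 2 droplet libraries were used as deposited: raw UMI counts per gene and barcode, made by the authors with Cell Ranger 7.1.0, per the file headers, on mm10, per the submitters' processing notes, which also name Seurat. The labels' protocols give a 10x 3′ kit, version 3. For the annotation release and counting settings the sources used here name nothing. UMIs were summed over the T cells of each library, scaled to CPM and compared as ratios with exact conditional binomial 95% intervals in scipy 1.17.1. The intervals were tested on simulated Poisson counts, the model they assume, so that test did not cover uneven counts between cells. A member was called past 1.2-fold, between cell groups in both libraries. Median depth was 3174 UMIs per cell in Control and 3465.5 in SAP; intervals cover counting error only. Doublets were not removed; leaving out the barcodes of most UMIs and cells of 2 lineages were alternatives, as were TMM (edgeR 4.0.16) and median-of-ratios (DESeq2 1.42.0) factors, used for scaling alone.

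Members, gene lists and tests were chosen with earlier results of these data known. Named with values are the top 3 members of each complex, the 8 highest and 8 lowest ratios whose interval leaves out 1, the members called between gates and tertiles, the paralog families and genes beside the rule; Atp5b, Sdha and the values for the Folr1 and keratin cells were chosen after values were seen. Ndufb1, listed among the genes beside the rule, is a member. The values of 1 eligible member are not reported here by themselves and it is not drawn by name; it is included in counts and sums.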

Additional observations from a re-analysis of the deposited data

How the results depend on the processing

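No paired analysis was possible because each group is 1 library. Values below follow the order of the report, and the cause of each move was not tested unless the setting's construction shows it. A percentage in brackets after a count of members is the share of all genes tested that was called the same way. With TMM factors 0 members were at least 1.2-fold higher (5.08%) and 7 lower (6.78%), 8 intervals lay above 1 (11.8%) and 36 below (32.0%), the median was 0.947, all members summed to 0.910 and complexes I to V to 0.936, 0.978, 0.919, 0.899 and 0.891. With median-of-ratios factors there were 0 higher (5.61%) and 4 lower (5.11%), 9 intervals above 1 (14.3%), a sum of 0.924 and complex sums of 0.951, 0.994, 0.934, 0.914 and 0.906. Complex II was thus above 1 with CPM (1.05) and below it with both.

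Without the Folr1 and keratin cells 0 members were higher (6.69%), 2 lower (1.48%) and 8 intervals above 1 (28.4%), and all members, complex I and complex V had 0.966, 0.990 and 0.942; Ndufs8 turned to 0.967 and summed levels were 17281 and 16688 CPM. There the Cd8a-only gate had 0 higher (19.1%) and a SAP ratio of 0.975, the mitochondrial tertiles had 1 lower member (2.38%) and ratios of 0.965 and 0.972, and complexes I to IV had 1.39 and 1.38 across tertiles of complex V. With TMM factors as well there were 0 higher (2.25%), 2 lower (3.82%), 1 interval above (11.5%) and 38 below (24.1%), a median of 0.939, a sum of 0.915 and complex sums of 0.938, 1.001, 0.929, 0.909 and 0.893, with Ndufb11 at 0.989, Uqcrc1 at 0.985 and Ndufs8 at 0.915. With median-of-ratios factors these were 0 (2.08%), 2 (3.99%), 1 (10.95%), 41 (25.3%), 0.936, 0.911, 0.934, 0.998, 0.926, 0.905 and 0.889, then 0.985, 0.9815 and 0.912. In cells of 1% to 2% mitochondrial UMIs there were 0 higher (8.64%), 10 intervals above (17.0%) and 10 below (8.57%), a sum of 0.989, complexes III and IV at 1.01 and 0.988, and 17279 CPM in Control. In cells of 2000 to 5000 UMIs there were 0 higher (8.90%), 2 lower (2.45%) and 8 above (21.8%), with 0.968 for all members, 0.995, 1.11, 0.973, 0.956 and 0.949 by complex, Ndufs8 at 0.942, Cox7a2l at 44.6% and 50.4% of its family and summed levels of 17107 and 16557 CPM. At 100 CPM there were 0 higher (2.49%) and 6 above (30.7%).

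For all T cells, a mitochondrial limit of 5% gave a sum of 0.986, levels of 17517 and 17264 CPM and 2 higher members in the Cd8a-only gate (20.4%). At 1500 UMIs levels were 17685 and 17375 CPM. All barcodes gave 8 higher members of 78 (13.0%), 0.993 for all, 1.02, 0.981 and 0.974 for complexes I, IV and V, and 17337 CPM in SAP. At least 5 receptor and CD3 UMIs gave 0 higher (6.39%), 12 intervals above (27.9%), 0.968, 0.992 and 0.945 for all, I and V, Ndufs8 at 0.983 and 16920 CPM in SAP. Without the barcodes of most UMIs there were 0 higher (6.36%), 2 lower (1.53%) and 6 above (26.3%), 0.965, 0.988 and 0.941, Ndufs8 at 0.965, Cox7a2l at 44.6% and 49.6%, and 16922 and 16328 CPM. With no filter 7 of 83 were higher (32.6%) and 2 lower (15.1%), and at 100 CPM 2 of 49 were higher (5.41%).

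Scaled without mitochondrial and ribosomal protein UMIs, 2 members were higher (9.04%), and all, I, IV and V had 0.966, 0.994, 0.955 and 0.946. There the Trdc gate had 10 lower (9.92%) and ratios of 0.908 and 0.9105, the Cd8a-only gate 0 higher (14.9%), 7 lower (11.1%), 0.903 and 0.919, the Cd4 gate 3 higher (12.6%), 1.01 (a reversal in Control) and 1.04, the mitochondrial tertiles 1 higher (11.1%), 0.968 and 0.951, and the complex V tertiles 1.43 and 1.46. With gates of 2 UMIs the Trdc gate had 8 lower (7.58%), 0.926 and 0.939, the Cd8a-only gate 0.927 and 0.955, and the Cd4 gate 3 higher (12.3%) and 1.04 in SAP. In cells of 2000 to 5000 UMIs the Trdc gate had 2 higher (18.5%) and reversed to 1.02 and 1.04, the Cd8a-only gate had 2 higher (18.3%), 1 lower (6.36%), 1.01 and 1.02, and the Cd4 gate 2 higher (11.04%); the mitochondrial tertiles gave 1 lower (3.34%), 0.965 and 0.956 and the complex V tertiles 1.29 and 1.28. With 5 groups in place of 3 the mitochondrial split gave 19 lower (11.1%), 0.918 and 0.892, and the complex V split 1.55 and 1.57. Values of the Cd4 gate rest on 189 and 166 cells, and those of the Mki67 cells on 143 and 138.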
